A study of Mus musculus with 8 samples.

Results

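The response of Smad4-on pancreatic ductal adenocarcinoma (PDAC) cells to TGFβ1 was described from 4 of the 8 RNA-seq libraries of the series. These are the libraries of cells without doxycycline (Dox), treated either with TGFβ1 or with SB505124, and every gene that passed a filter on low counts was examined, 14301 of the 53465 in the table. The cells were the lines KCS-B73 and KCS-B87 (B73 and B87 below), each grown from a primary tumor of a KC-shSmad4 mouse of mixed C57BL/6J and 129 background. These mice carry *Ptf1a*-Cre, which acts in pancreatic cells, an LSL-rtTA3-IRES-mKate2 cassette at *Rosa26*, and at *Col1a1* a Dox-inducible, GFP-linked shRNA against *Smad4*. All 4 groups share these alleles, and which of 2 hairpins each line carries is not given in the sources used here. In the Smad4-on groups the cells had been without Dox for 5 days when they were plated, so that the shRNA was off, and a day later they received 100 pM recombinant mouse TGFβ1 or 2.5 µM SB505124 for 24 h. The Smad4-off groups stayed on Dox and received the same treatments. Each group held 1 library from each line (n = 2), and each line was the descendant of 1 tumor. The line was part of the model, so the spread below is how unevenly the 2 lines responded, beyond their constant difference.

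TGFβ1 is a secreted factor that binds a type II receptor, which activates the type I receptor kinase. The kinase phosphorylates SMAD2 and SMAD3, which join SMAD4 and act in the nucleus as a transcription complex, usually together with other factors. The pathway is known in pancreatic epithelium for restraint of the cell cycle, for epithelial–mesenchymal transition (EMT) and for production of extracellular matrix, and *SMAD4* is a tumor suppressor often lost in PDAC. SB505124 blocks the type I receptor kinase, so it also silences signals that the cells or the serum supply. The comparison therefore sets a stimulated receptor against an inhibited one. There was no untreated arm, and a rise on TGFβ1 and a fall on SB505124 cannot be told apart.

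Promoters of 4 genes that stand for the response are shown first, as the 250 bases before the RefSeq start on GRCm38.p6. *Col7a1* and *Vegfa* are among the genes that rose, and *Mmp3* and *Il33* among those that fell. Capitals mark 3 motifs searched on both strands, namely CAGAC, the half-site bound by SMAD proteins, the AP-1 motif TGANTCA and the antioxidant response element TGACNNNGC. The region of *Col7a1* (chr9:108953336-108953585, plus strand) held 1 SMAD half-site and 1 antioxidant element. That of *Vegfa* (chr17:46032378-46032627, minus strand) held 2 SMAD half-sites, that of *Mmp3* (chr9:7445572-7445821, plus strand) 1 AP-1 motif and that of *Il33* (chr19:29924863-29925112, plus strand) no match. No GENCODE M21 exon overlaps these 4 regions.
Col7a1: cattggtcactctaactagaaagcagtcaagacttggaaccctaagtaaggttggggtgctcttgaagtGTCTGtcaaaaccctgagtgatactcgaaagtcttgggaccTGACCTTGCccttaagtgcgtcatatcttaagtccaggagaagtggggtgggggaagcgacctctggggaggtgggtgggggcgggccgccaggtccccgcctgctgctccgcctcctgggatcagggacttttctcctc
Vegfa: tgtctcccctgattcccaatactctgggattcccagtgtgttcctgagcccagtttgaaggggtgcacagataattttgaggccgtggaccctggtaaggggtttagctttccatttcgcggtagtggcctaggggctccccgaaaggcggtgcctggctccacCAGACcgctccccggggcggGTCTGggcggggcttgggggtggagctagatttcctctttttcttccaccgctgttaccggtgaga
Mmp3: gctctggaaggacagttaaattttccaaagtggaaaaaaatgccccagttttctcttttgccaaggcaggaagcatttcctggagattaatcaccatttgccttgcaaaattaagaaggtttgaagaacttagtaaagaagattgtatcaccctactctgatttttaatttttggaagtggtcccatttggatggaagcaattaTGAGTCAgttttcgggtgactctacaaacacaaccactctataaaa
Il33: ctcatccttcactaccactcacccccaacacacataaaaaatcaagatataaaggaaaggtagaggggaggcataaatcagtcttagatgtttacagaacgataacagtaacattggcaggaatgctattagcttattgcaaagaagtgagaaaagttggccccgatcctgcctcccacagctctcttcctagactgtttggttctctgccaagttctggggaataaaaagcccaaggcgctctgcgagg

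These letters are short and common, so their presence describes a region and shows no binding. Of the tested genes, 10260 matched a promoter by symbol. CAGAC occurred in 42.2% of all 27025 promoters of the table, in 43.2% of the 567 promoters of genes called higher and in 40.6% of the 860 of genes called lower. In tested genes that were not called its share was 40.6%. TGANTCA occurred in 6.85% of all promoters, in 9.70% of those of genes called higher, in 8.49% of those of genes called lower and in 3.79% of the 8833 of tested genes that were not called. TGACNNNGC occurred in 10.1% of all promoters and in 12.2% of those of tested genes that were not called. Its share was 13.4% in genes called higher and 10.1% in genes called lower. The full SMAD palindrome GTCTAGAC, which does not overlap CAGAC, occurred in 0.174% of all promoters and in 0.204% of tested ones not called. It was found in 1 of the genes called higher and in 2 of those called lower. None of these shares was tested.

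The 4 libraries held 18389235 to 23440550 counts, at which 3 counts correspond to 0.128 to 0.163 CPM, counts scaled to a common library size, the smallest level taken as detectable. Levels below are CPM after TMM normalization, in B73 and then in B87. *Smad4* itself (chromosome 18, 73639009 to 73703780) was at 97.4 and 114 CPM with SB505124 and at 117 and 115 CPM with TGFβ1, a log2 fold change of 0.14 ± 0.09 (SE) that was not called (edgeR adjusted p 0.265). With Dox, it was at 33.7 to 35.5 CPM in the 4 Smad4-off libraries. Of the markers of ductal epithelium, *Krt7*, *Krt8*, *Krt18*, *Krt19*, *Cdh1* and *Sox9* were present in all 4 Smad4-on libraries. *Epcam* had 39 and 5 counts with SB505124 and 30 and 3 with TGFβ1. *Cldn4* had 0 counts in both SB505124 libraries and 906 and 64 with TGFβ1. Markers of other cell types were low. Of the fibroblast markers, *Lum* was at 0 in all 4 libraries and *Dcn*, *Thy1* and *Dpt* had at most 2 counts, whereas *Pdgfrb* had 653 and 310 counts in B87. The fibroblast sum was 2.76 and 42.1 CPM with SB505124 and 2.50 and 40.9 CPM with TGFβ1. For leukocytes the sum ran from 1.38 to 3.62 CPM, with *Lyz2* and *Cd3e* at 0, and for acinar cells from 0.408 to 1.37 CPM. All 6 endocrine markers were at 0. The endothelial sum went from 0.702 and 2.66 to 3.42 and 4.79 CPM, of which *Cdh5* was called higher (log2 fold change 3.79 ± 0.50, edgeR adjusted p 0.00177), with *Emcn* at 0 and at most 2 counts of *Pecam1*.

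Many genes differed in level between TGFβ1 and SB505124 in Smad4-on cells. Calls required an edgeR p under 0.05 after Benjamini-Hochberg adjustment and a fitted change of over 2-fold. On these terms TGFβ1 raised 804 genes (5.62% of those tested) and lowered 1189 (8.31%) relative to SB505124, 13.9% in all. With no replicate block, that is without the line in the model, 447 and 588 genes were called. Over all tested genes the median log2 fold change was -0.02, and with library totals in place of TMM it was -0.15. Of the called genes, 337 rose and 575 fell more than 4-fold, and 82 rose and 201 fell more than 16-fold. For 204 of them the lower group held 3 counts or fewer in all, so that their fitted fold depends on the prior count. The genes called higher took 3.84% and 4.03% of all counts with SB505124 and 11.4% and 12.7% with TGFβ1. The genes called lower went from 5.72% and 4.60% to 1.58% and 1.43%. Both TGFβ1 libraries lay above both SB505124 libraries in 4072 genes (28.5% of those tested) and below both in 4261 (29.8%). Such a separation of 2 against 2 libraries is therefore common over all genes.

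Among called genes the lines moved alike in direction and differed in size. Of the 1993 called genes, 1987 changed in the same direction in B73 and B87 and 1590 (79.8%) changed more than 2-fold in both. Calls came from a model with the line in it, which favors genes that changed alike in both lines. This agreement was therefore in part set by the selection and is not separate support. The median log2 fold change of the genes called higher was 1.68 in B73 and 1.71 in B87, and that of the genes called lower was -1.82 and -1.70. For 116 called genes the lines differed by more than 2 on the log2 scale. Across all genes, which are not independent replicates, the fold changes of the lines correlated at r = 0.814, and the points share their normalization.

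**Figure D1:**
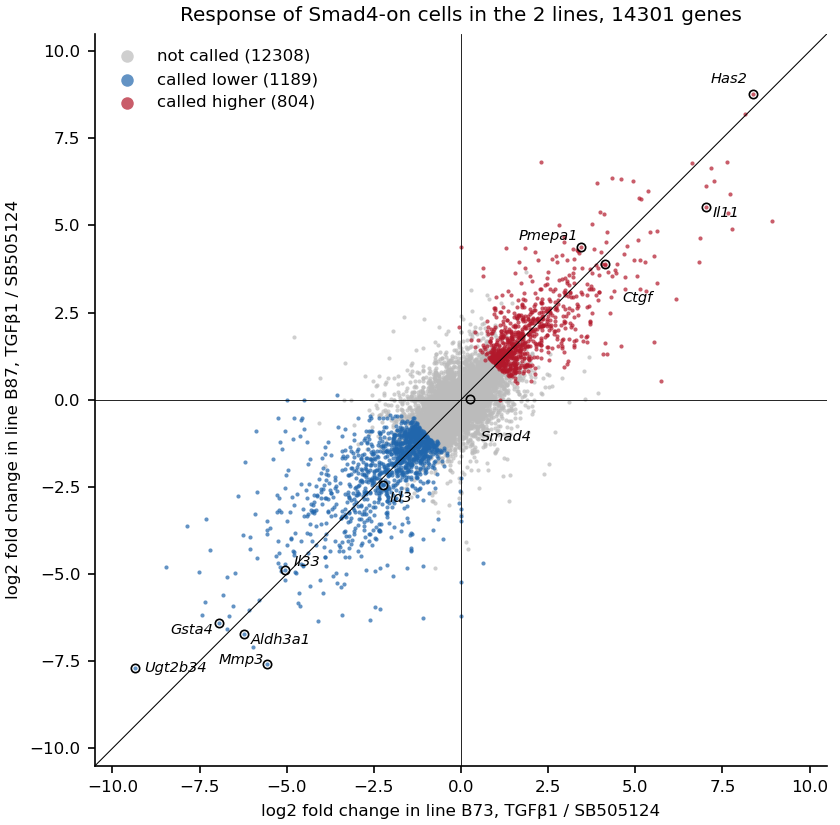
Log2 fold change of TGFβ1 over SB505124 in Smad4-on cells of line B73 (x axis) and line B87 (y axis) for 14301 genes, on the log2 CPM scale (prior count 2). Red points are the 804 genes called higher, blue the 1189 called lower and grey the rest, the diagonal marks equal change, and open circles mark named genes. *Smad4* lies near the origin, while *Has2* and *Il11* lie far up in both lines and *Ugt2b34*, *Gsta4* and *Aldh3a1* far down.

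*Has2*, the synthase of hyaluronan, went from 0.0540 and 0.250 CPM (1 and 6 counts) to 49.3 and 152 CPM, the largest rise among genes that met the level rule for naming (log2 fold change 9.80 ± 1.01, edgeR adjusted p 0.000701). *Chst11*, a sulfotransferase of chondroitin, went from 0.973 and 0.957 to 43.9 and 66.8 CPM (5.88 ± 0.44). The minor fibrillar collagen gene *Col5a3* went from 0.216 and 0.624 to 63.4 and 29.6 CPM (6.61 ± 0.49). *Ccbe1*, a secreted protein of lymphatic development, went from 5.40 and 2.45 to 189 and 142 CPM (5.43 ± 0.30). The protease gene *Ctsw* went from 3 and 4 counts to 51.0 and 29.7 CPM (7.87 ± 0.54). In each of these genes both TGFβ1 libraries lay above both SB505124 libraries, as in 28.5% of all tested genes. The edgeR adjusted p-values of *Chst11*, *Col5a3*, *Ccbe1* and *Ctsw* lay between 0.000101 and 0.000216.

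*Piezo2*, a mechanically gated channel, went from 0.324 to 48.8 CPM in B73 and, in B87, from 7.74 to 196 CPM (5.43 ± 0.54, edgeR adjusted p 0.000620). *Nat8l*, which makes N-acetylaspartate, went from 10.2 to 314 CPM in B73 and, in B87, from 1.71 to 140 CPM (5.56 ± 0.41, adjusted p 0.000202). *Gfpt2*, of the hexosamine pathway, was at 0 and 0.915 CPM with SB505124 and at 10.8 and 15.4 CPM with TGFβ1 (5.41 ± 1.04, adjusted p 0.00839). Its log2 fold change was 10.21 without the SB505124 library of B87 and 8.38 without the TGFβ1 library of B87. With no replicate block the adjusted p of *Piezo2*, *Nat8l* and *Gfpt2* was 0.122, 0.0539 and 0.151. In CPM, the largest gains were in *Fn1*, *Thbs1* and *Fbln2*, described with the matrix, and in *Actb* and *Msn*. The membrane–actin linker *Msn* went from 1286 and 1138 to 4115 and 3869 CPM (1.72 ± 0.10, adjusted p 0.000114). Cytoplasmic actin *Actb* went from 3287 and 2873 to 6232 and 6116 CPM (1.00 ± 0.10), just past the 2-fold line, and at 0.89 without the SB505124 library of B87 it was no longer past it.

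Of 10 genes of negative feedback on the pathway tested, 5 were called higher and none lower, with a median log2 fold change of 1.30, against -0.02 over all genes and a background of 5.62% called higher. *Pmepa1*, which sequesters receptor-activated SMADs, went from 58.8 and 30.7 to 647 and 637 CPM (3.88 ± 0.26, edgeR adjusted p 0.000151). *Skil*, a corepressor that binds SMADs, went from 44.7 and 46.4 to 249 and 271 CPM (2.51 ± 0.09, adjusted p 2.62e-05). The inhibitory SMAD gene *Smad7* went from 30.2 and 25.1 to 153 and 155 CPM (2.48 ± 0.12, adjusted p 5.48e-05). The lines were close in *Skil* and *Smad7* and differed more in *Pmepa1*. The treatments did not overlap in any of the 3, with TGFβ1 higher, as in 28.5% of all tested genes. *Tgif1*, a SMAD corepressor (70.6 and 74.0, then 223 and 215 CPM), and *Ldlrad4* (2.38 ± 0.15) were called as well, although 47.4% of the 75-base stretches of *Ldlrad4* also occur in transcripts of *Fam210a*, so that its count is uncertain. The ubiquitin ligase gene *Smurf2* had a log2 fold change of 1.00 ± 0.09 (adjusted p 0.000436), just under the 2-fold line, and it passed without the TGFβ1 library of B73 (1.07) or the SB505124 library of B87 (1.05). *Ski* (0.79 ± 0.09) and *Smurf1* (0.68 ± 0.07) had adjusted p-values of 0.00107 and 0.000857 and changed less than 2-fold. *Tgif2* (-1.36 ± 0.44, adjusted p 0.0533) and *Bambi* (-0.39 ± 0.47, adjusted p 0.558) had at most 1.83 CPM. Of the stretches of *Tgif2*, 64.4% occur in transcripts of a predicted gene. *Tgif2* was called without the SB505124 library of B73 (-1.78, adjusted p 0.0360).

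Targets of BMP signaling, the sister pathway that runs through SMAD1, SMAD5 and SMAD4, were lower. Of 7 tested, 6 were called lower and none higher (median log2 fold change -2.35, background 8.31%). The ID proteins are inhibitors of basic helix–loop–helix factors. *Id1* went from 149 and 117 to 31.6 and 41.2 CPM (-1.85 ± 0.18, edgeR adjusted p 0.000605), *Id2* from 83.9 and 87.6 to 9.95 and 21.4 CPM (-2.48 ± 0.28, adjusted p 0.000973) and *Id3* from 143 and 263 to 30.1 and 48.4 CPM (-2.35 ± 0.11, adjusted p 5.48e-05). The inhibitory SMAD gene *Smad6* went from 29.8 and 41.0 to 5.87 and 8.46 CPM (-2.31 ± 0.14, adjusted p 0.000114). In each of these 4 genes both SB505124 libraries lay above both TGFβ1 libraries, as in 29.8% of all tested genes. *Smad9*, a BMP SMAD, changed by -3.94 ± 0.51 (adjusted p 0.00172). *Atoh8*, a helix–loop–helix factor, changed by -4.42 ± 0.51 (adjusted p 0.00103). It was at 42.1 and 136 CPM with SB505124 and at 0.459 and 9.28 CPM with TGFβ1, and its adjusted p was 0.0949 with no replicate block. *Msx1* was not called (-0.76 ± 0.39, adjusted p 0.177), and *Id4* and *Msx2* were too low to test.

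Of 14 ligands, receptors and SMADs of the pathway, 2 were called higher and 1 lower, beside 5.62% and 8.31% of all genes. Their median log2 fold change was 0.18. *Inhba*, which encodes the activin A subunit, went from 35.8 and 86.8 to 524 and 1259 CPM (3.87 ± 0.20, edgeR adjusted p 7.76e-05), a rise of similar size in both lines from different starting levels, and its adjusted p was 0.0515 with no replicate block. *Inhbb*, another activin subunit, was near the detectable level in B73 with SB505124 (0.486 and 2.0 CPM, then 4.75 and 4.38 CPM). It had a log2 fold change of 1.91 ± 0.48 (adjusted p 0.0218), which became 1.24 without the SB505124 library of B73 (adjusted p 0.0592), 1.56 without the TGFβ1 library of B73 (0.0947) and 3.17 without the SB505124 library of B87. The coreceptor gene *Tgfbr3* fell from 9.56 and 21.8 to 1.38 and 3.26 CPM (-2.77 ± 0.70, adjusted p 0.0231), and was not called without the TGFβ1 library of B73 (-2.15, adjusted p 0.114) or the SB505124 library of B87 (-1.66, adjusted p 0.163). With no replicate block the adjusted p was 0.0971 for *Inhbb* and 0.0562 for *Tgfbr3*.

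CCN proteins are secreted matrix-associated signaling proteins, and *Ctgf* is among the best known TGFβ targets. *Ctgf* (chromosome 10, 24595442 to 24598683) went from 85.5 and 168 to 1511 and 2501 CPM (4.01 ± 0.15, edgeR adjusted p 3.40e-05). *Wisp1* went from 6.97 and 23.2 to 108 and 318 CPM (3.85 ± 0.09, adjusted p 5.72e-06), so that the lines differed in level and hardly in fold, and its adjusted p was 0.0542 with no replicate block. *Cyr61* went from 204 and 222 to 1197 and 1570 CPM (2.68 ± 0.19). *Nov* moved the other way, from 4.59 and 26.7 to 0.255 and 4.08 CPM (-3.01 ± 0.37, adjusted p 0.00137, and 0.289 with no replicate block). In all, 3 of the 5 tested CCN genes were called higher and 1 lower, beside 5.62% and 8.31% of all genes. Of the 75-base stretches of *Ctgf*, 14.6% also occur, on either strand, in transcripts of *Gm15270*.

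**Figure D2:**
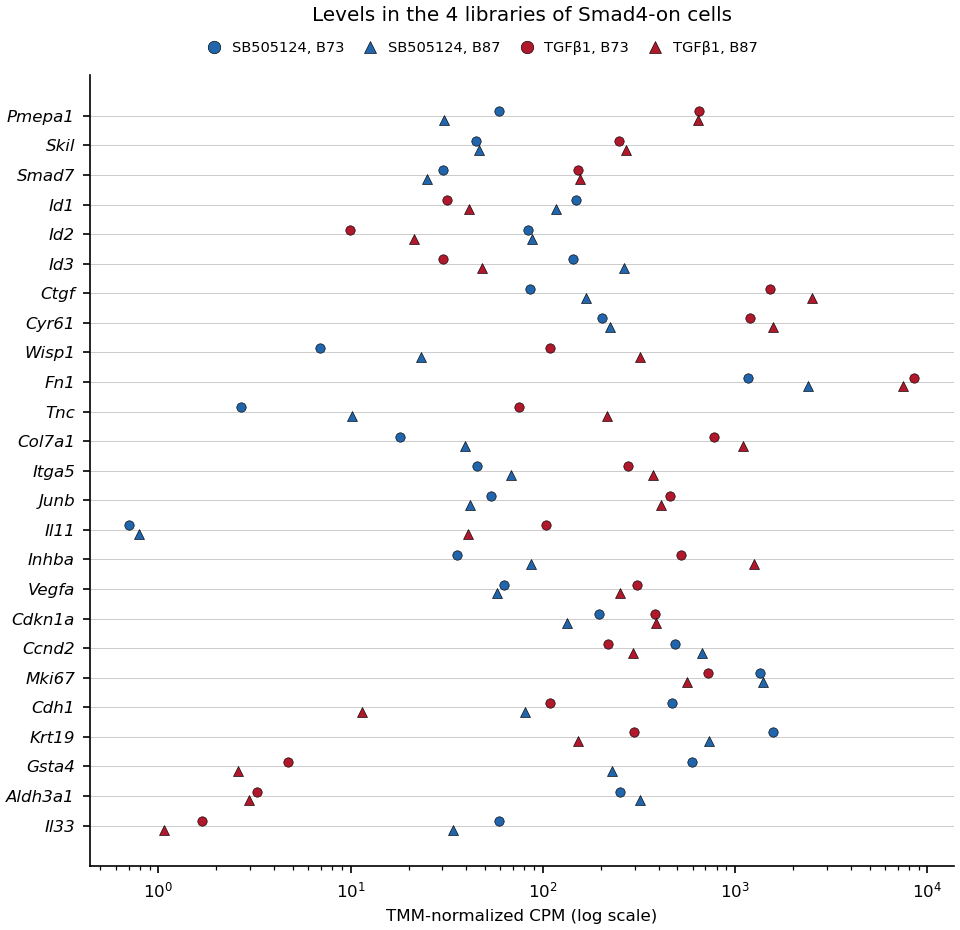
Level of 25 named genes in each of the 4 libraries of Smad4-on cells, as TMM-normalized CPM on a log axis. Circles are line B73 and triangles line B87, blue with SB505124 and red with TGFβ1, with 1 library per symbol. For *Pmepa1*, *Skil* and *Smad7* the red symbols lie right of the blue ones in both lines, for *Id1*, *Id2* and *Id3* left of them, and for *Cdh1* the lines lie so far apart that the treatments overlap.

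Structural genes of the matrix rose more often than they fell. Of 24 collagen genes tested, 11 were called higher and 2 lower (median log2 fold change 1.07), beside 5.62% and 8.31% of all genes, and of 29 matrix glycoprotein and proteoglycan genes 12 were higher and 3 lower (median 0.92). *Col7a1*, the anchoring-fibril collagen (chromosome 9, 108953586 to 108984875), went from 18.0 and 39.3 to 774 and 1103 CPM (5.11 ± 0.16, edgeR adjusted p 2.44e-05). *Fn1*, fibronectin, went from 1166 and 2388 to 8559 and 7435 CPM (2.18 ± 0.32, adjusted p 0.00288). The matricellular gene *Thbs1* went from 190 and 136 to 2594 and 4517 CPM (4.45 ± 0.43, adjusted p 0.000574). *Fbln2*, a basement-membrane glycoprotein, went from 979 and 2031 to 3396 and 6343 CPM (1.72 ± 0.11) and *Tnc*, tenascin C, from 2.70 and 10.1 to 75.3 and 216 CPM (4.63 ± 0.28), with adjusted p-values of 0.000147 and 0.000114, and of 0.128 and 0.0610 with no replicate block. *Ltbp2*, a microfibril-associated protein, went from 0.811 and 2.12 to 14.3 and 92.9 CPM (5.13 ± 0.65, adjusted p 0.00161, and 0.0831 with no replicate block). B87 started higher than B73 in each of *Col7a1*, *Fn1*, *Fbln2*, *Tnc* and *Ltbp2*. The treatments did not overlap in any of them, with TGFβ1 higher, as in 28.5% of all tested genes.

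Some matrix genes were low or moved in 1 line mostly. *Col11a1* and *Col17a1* rose from at most 0.540 CPM (4.03 ± 0.56 and 3.91 ± 0.78), to 8.06 and 0.765 CPM and to 0.868 and 1.27 CPM, with 0.178 and 0.0650 as the adjusted p once the replicate block was dropped. *Col11a1* had a log2 fold change of 7.37 without the SB505124 library of B73, and *Col17a1* one of 7.09 without that of B87. *Tgfbi*, despite its name as a TGFβ-induced gene, was lower, at 1.46 and 7.61 CPM with SB505124 and at 0.0510 and 0.357 CPM with TGFβ1 (-4.47 ± 1.32, edgeR adjusted p 0.0386). That call was lost without the TGFβ1 library of B73 (adjusted p 0.160), the SB505124 library of B87 (-2.17, 0.221) or the TGFβ1 library of B87 (0.0960), and with no replicate block (0.0831). Without the line in the model, 2 collagen and 3 glycoprotein genes were called higher. Of the genes called lower, 1 collagen was left without the SB505124 library of B87 or the TGFβ1 library of B73, and 1 glycoprotein without either library of B87.

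Of 17 genes of crosslinking and collagen modification, 5 were called higher and 1 lower (median 0.62), beside 5.62% and 8.31% of all genes. *Lox*, lysyl oxidase, went from 0.648 and 0.0416 to 13.7 and 1.63 CPM (4.46 ± 0.47, edgeR adjusted p 0.000726) and *Loxl2* from 45.7 and 76.2 to 346 and 492 CPM (2.80 ± 0.17, adjusted p 0.000118). The hydroxylase genes *Plod2* and *P4ha1* rose by 1.70 ± 0.21 and 1.28 ± 0.15 (adjusted p 0.00140 and 0.00121). With no replicate block *Loxl2* alone of the 5 was called, with adjusted p-values of 0.150, 0.0794 and 0.135 for *Lox*, *Plod2* and *P4ha1*. Of the stretches of *Loxl2*, 43.6% occur in transcripts of *Gm21451*, so its level is uncertain.

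Beside 5.62% and 8.31% of all genes, 15 of 29 integrin and focal adhesion genes were called higher and 1 lower (median 1.01). Of 20 actin and contractile genes 10 were higher and 2 lower (median 1.02). Without the SB505124 library of B87 the first count was 9, and with no replicate block 8 and 6 genes were called higher. Without either library of B87, 1 contractile gene was called lower. *Itga5*, the fibronectin receptor α chain, went from 45.7 and 68.6 to 277 and 373 CPM (2.52 ± 0.13, edgeR adjusted p 8.71e-05). *Itga2*, a collagen receptor chain, went from 68.7 and 10.7 to 456 and 189 CPM (3.20 ± 0.57, adjusted p 0.00618, and 0.0742 with no replicate block), while *Itga1*, another collagen receptor chain, fell from 48.1 and 29.1 to 9.03 and 4.79 CPM (-2.49 ± 0.19, adjusted p 0.000258). *Itgb6*, which activates latent TGFβ, was at 1.51 and 0.707 CPM and then at 12.1 and 2.60 CPM (2.56 ± 0.50, adjusted p 0.00863). It was not called without the SB505124 library of B73 (2.50, adjusted p 0.0681), the TGFβ1 library of B73 (1.64, 0.0544) or the line (0.0796).

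Among the contractile genes, *Acta2*, smooth muscle actin, went from 59.3 and 130 to 195 and 701 CPM (2.08 ± 0.24, edgeR adjusted p 0.00109, and 0.153 with no replicate block) and *Pdlim7*, a cytoskeletal adaptor, from 50.4 and 46.7 to 297 and 262 CPM (2.52 ± 0.11, adjusted p 4.83e-05). *Acta1*, skeletal actin, went from 0.594 and 0 to 16.4 and 7.60 CPM (5.56 ± 0.68, adjusted p 0.00134). Its log2 fold change was 10.33 without the SB505124 library of B73, and its adjusted p 0.0665 with no replicate block. *Mylk*, the myosin light chain kinase, fell from 13.5 and 25.3 to 1.02 and 2.50 CPM (-3.47 ± 0.56, adjusted p 0.00411).

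**Figure D3:**
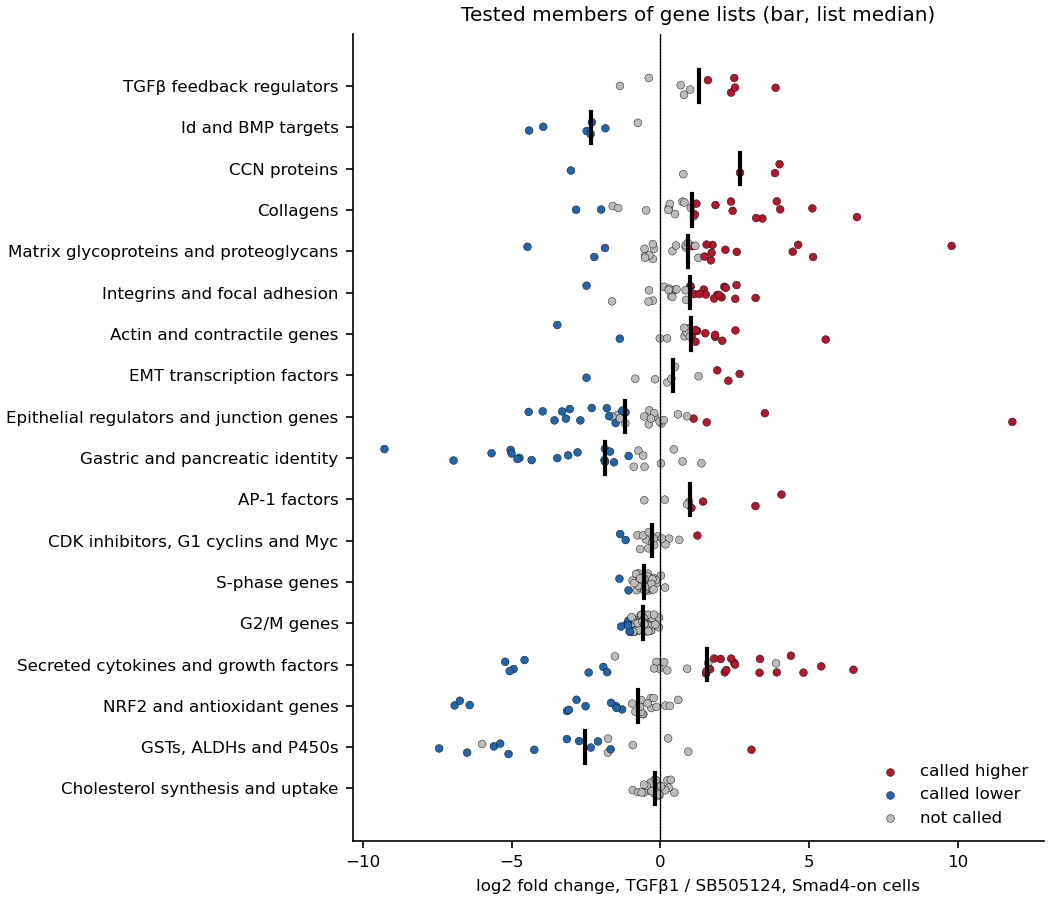
Log2 fold change of TGFβ1 over SB505124 in Smad4-on cells (x axis) for the tested members of 18 gene lists (rows), 1 point per gene, with red for genes called higher, blue for genes called lower and grey for the rest. Black bars are list medians, -2.35 for the Id and BMP targets and 1.30 for the feedback regulators, and vertical lines mark 0 and the median of all genes, -0.02.

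Transcription factors of EMT changed in part. Of 10 tested, 3 were called higher and 1 lower (median 0.43), beside 5.62% and 8.31% of all genes. *Sox4* went from 27.1 and 30.2 to 184 and 180 CPM (2.66 ± 0.18, edgeR adjusted p 0.000176) and *Hmga2*, a chromatin protein, from 265 and 212 to 1004 and 789 CPM (1.91 ± 0.09, adjusted p 5.48e-05). *Snai1* went from 0.811 to 15.1 CPM in B73 and, in B87, from 16.7 to 41.8 CPM (2.28 ± 0.56, adjusted p 0.0211), so that the treatments overlapped across lines. Its adjusted p was 0.0745 without the TGFβ1 library of B73 and 0.504 with no replicate block, and its log2 fold change was 3.97 without the SB505124 library of B87. *Twist2* fell from 14.1 and 9.32 to 3.32 and 1.12 CPM (-2.49 ± 0.28, adjusted p 0.000967, and 0.0567 with no replicate block). The remaining members were *Zeb1* (0.49 ± 0.08, adjusted p 0.00416), *Zeb2* (0.37 ± 0.18, 0.160), *Snai2* (0.23 ± 0.17, 0.341), *Twist1* (-0.18 ± 0.22, 0.562), *Prrx1* (-0.85 ± 0.46, 0.199) and *Foxc2* (1.28 ± 0.45, 0.0677), none past both thresholds. Without the SB505124 library of B87 the value of *Twist1* was 0.13. Transcripts of neighbouring or overlapping genes hold 53.8% of the stretches of *Sox4* and 45.3% of those of *Twist2*. Of 10 mesenchymal genes, 3 were called higher and none lower, among them *Ncam1*, an adhesion molecule (39.4 and 50.9, then 310 and 240 CPM; 2.66 ± 0.33, adjusted p 0.00147), and 1 with library totals in place of TMM.

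Epithelial genes were more often lower. Beside 8.31% and 5.62% of all genes, 13 of 33 regulators and junction genes were called lower and 4 higher (median -1.18). Without the SB505124 library of B73 4 of them were called lower, without the TGFβ1 library of B73 8, and with no replicate block 3. *Cdh1*, E-cadherin, went from 469 to 109 CPM in B73 and, in B87, from 80.5 to 11.5 CPM (-2.31 ± 0.46, edgeR adjusted p 0.00936). The fall was of similar direction in both lines but the B73 level with TGFβ1 exceeded the B87 level with SB505124, and the adjusted p was 0.0691 without the SB505124 library of B73 and 0.295 with no replicate block. *Cldn4*, a tight-junction claudin, went against the list. It had 0 counts in both SB505124 libraries and 906 and 64 counts with TGFβ1 (edgeR adjusted p 0.000215, and 0.0875 with no replicate block), at least 351-fold higher against 3 counts over the group. Of 9 keratin genes, *Krt13* fell from 5.67 and 12.3 to 0.153 and 0.357 CPM (-5.11 ± 0.29, adjusted p 0.000108) and *Krt19*, a duct keratin, from 1575 and 729 to 299 and 153 CPM (-2.33 ± 0.22, adjusted p 0.000454, and 0.0568 with no replicate block). No keratin was called higher, and the list median was 0.19. *Ezr*, a membrane–actin linker of epithelial cells, fell from 1671 and 1199 to 664 and 714 CPM (-1.06 ± 0.19, adjusted p 0.00558), and by 0.68 without the SB505124 library of B73, less than 2-fold.

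Most genes of gastric and pancreatic identity were lower. Of 25 tested, 17 were called lower, beside 8.31% of all genes, 8 were not called and none was called higher (median -1.87). With no replicate block 10 were called lower. The trefoil peptide gene *Tff2* was at 2.32 and 5.28 CPM with SB505124 and had 0 counts with TGFβ1 in both lines, at least 52.2-fold lower against 3 counts over the group (edgeR adjusted p 0.00298). *Gkn2*, a gastrokine of stomach mucosa, went from 5.46 and 2.37 CPM to 1 count in all, a ratio of 146 with an exact 95% counting interval of 25.8 to 5787 (adjusted p 0.00149). The gel-forming mucin gene *Muc5b* went from 2.05 and 3.87 CPM to 2 counts in all, a ratio of 60.4 with an interval of 16.4 to 504 (adjusted p 0.00174). Counting intervals cover counting error only. Without the TGFβ1 library of B73 the fitted log2 fold change of *Muc5b* was -9.47. The levels of *Tff2*, *Gkn2* and *Muc5b* were low in CPM, and the direction was the same in both lines. *Lgals4*, a galectin of digestive epithelium, was abundant and went from 961 and 64.5 to 103 and 2.75 CPM (-3.56 ± 0.36, adjusted p 0.000662, and 0.372 with no replicate block).

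Of 8 AP-1 genes, 4 were called higher and none lower (median 1.00), beside 5.62% and 8.31% of all genes. With no replicate block 2 were called higher. *Junb* went from 53.4 and 41.8 to 458 and 413 CPM (3.20 ± 0.15, edgeR adjusted p 5.78e-05), *Fosb* from 0.865 and 0.998 to 15.7 and 16.2 CPM (4.07 ± 0.32, adjusted p 0.000252) and *Jun* from 29.4 and 62.5 to 83.8 and 161 CPM (1.43 ± 0.11, adjusted p 0.000260, and 0.130 with no replicate block). For *Junb* and *Fosb* the lines were nearly equal within each treatment. Of 17 KLF and RUNX genes, 3 were called higher and 2 lower (median 0.35), beside 5.62% and 8.31% of all genes. *Runx1* went from 56.8 and 53.8 to 148 and 149 CPM (1.43 ± 0.10, adjusted p 0.000186) and *Klf7* from 18.0 and 18.8 to 39.9 and 39.6 CPM (1.11 ± 0.16, adjusted p 0.00234), although 37.6% of the stretches of *Klf7* occur in *Gm26649*, a predicted gene. *Klf4*, a factor of differentiated epithelium, went from 278 and 165 to 45.4 and 120 CPM (-1.60 ± 0.45, adjusted p 0.0336). It was not called without the SB505124 library of B73 (-0.65, adjusted p 0.107), without the TGFβ1 library of B73 (-1.03, 0.186) or with no replicate block (0.141). With library totals in place of TMM, 1 KLF or RUNX gene was called higher and 4 lower.

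Most cell-cycle genes had lower levels by less than 2-fold. Of 42 S-phase genes, 29 had an adjusted p under 0.05, all with lower levels, but only 2 also fell more than 2-fold (median -0.54). Of 52 genes of G2 and mitosis, 43 had an adjusted p under 0.05, again all lower, and 7 were called (median -0.60). Beside them, 2235 of all tested genes were higher and 2516 lower at an adjusted p under 0.05 with no fold rule. With the fold rule 8.31% of all genes were called lower, a share that 2 of 42 lay under and 7 of 52 above. The counts of 2 and 7 sit on the 2-fold line. Leaving out the SB505124 or the TGFβ1 library of B73 gave 4 and 6 S-phase and 11 and 12 mitotic genes, leaving out those of B87 gave 1 and 1 and 4 and 2, and library totals gave 4 and 13. *Mki67*, the Ki-67 antigen of cycling cells, went from 1340 and 1396 to 726 and 561 CPM (-1.09 ± 0.14, edgeR adjusted p 0.00166), and by -0.87 without the TGFβ1 library of B87. *Cdc25c*, the phosphatase of mitotic entry, went from 44.3 and 42.4 to 21.4 and 18.4 CPM (-1.13 ± 0.10, adjusted p 0.000419). Of the stretches of *Cdc25c*, 10.7% occur in transcripts of another gene. In bulk RNA, fewer cycling cells and less RNA per cycling cell cannot be told apart.

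Of the CDK inhibitors, *Cdkn1a* (p21) went from 197 and 134 to 385 and 387 CPM (1.24 ± 0.20, edgeR adjusted p 0.00411) and *Cdkn2c* (p18) from 53.9 and 75.8 to 25.7 and 24.3 CPM (-1.36 ± 0.16, adjusted p 0.00111). *Cdkn1b* (-0.41 ± 0.10, adjusted p 0.0173) and *Cdkn2d* (-0.77 ± 0.11, 0.00251) changed less than 2-fold. No count of *Cdkn2a* or *Cdkn2b* was found in any of the 4 libraries, under the floor of 3 counts, and *Cdkn1c* had 1 to 5. The paper reports that most cell lines from KC-shSmad4 tumors had lost both copies of the *Cdkn2a/b* locus. The state of the locus in B73 and B87 was not tested here. Cyclin *Ccnd2* went from 484 and 669 to 218 and 293 CPM (-1.17 ± 0.12, adjusted p 0.000691), whereas *Ccnd1* went from 1137 and 1054 to 860 and 536 CPM (-0.68 ± 0.17, adjusted p 0.0205) and was not called. *Rbl1* (-0.58 ± 0.11, adjusted p 0.00684), *Ccne2* (-0.49 ± 0.13, 0.0280) and *Myc* (0.63 ± 0.19, 0.0374) were likewise under 2-fold. *Cdk2*, *Cdk4*, *Cdk6*, *Ccnd3*, *Ccne1*, *Cdc25a*, *E2f1* and *Rb1* had values between -0.39 and 0.29 and adjusted p-values of at least 0.0859. Stretches shared with other genes made up 20.6% of *Ccnd1*, 15.7% of *Cdk4*, 12.8% of *Ccne2* and 10.4% of *Rb1*. Of 13 genes of the BCL2 family of apoptosis regulators, *Pmaip1* (NOXA) was the only one called, beside 13.9% of all genes. It went from 30.6 and 16.8 to 126 and 96.6 CPM (2.25 ± 0.26, edgeR adjusted p 0.00116). With no filter on low counts 2 of the family were called.

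Secreted factors changed in both directions. Of 34 cytokine and growth factor genes, 17 were called higher and 7 lower (median 1.58), 14 and 5 with no replicate block. Of all genes, 5.62% were called higher and 8.31% lower. *Il11*, a cytokine of the IL-6 family (chromosome 7, 4772373 to 4782857), went from 0.702 and 0.790 to 104 and 41.0 CPM (6.49 ± 0.55, edgeR adjusted p 0.000334). The angiogenic factor *Vegfa* went from 62.4 and 57.9 to 310 and 250 CPM (2.22 ± 0.09, adjusted p 3.86e-05). *Csf2*, GM-CSF, went from 0.378 and 0.0416 to 16.0 and 3.16 CPM (5.41 ± 0.61, adjusted p 0.000985). Each of these rose in both lines with no overlap, as 28.5% of all tested genes did. In the other direction, the alarmin *Il33* (chromosome 19, 29925114 to 29960718) fell from 59.1 and 34.1 to 1.68 and 1.07 CPM (-5.07 ± 0.15, adjusted p 1.35e-05) and *Fgf1*, a growth factor, from 26.9 and 3.79 to 0.357 and 0.306 CPM (-5.22 ± 0.78, adjusted p 0.00298). Of 11 chemokine genes, 3 were called higher and 3 lower, and the count of higher calls was 0 without either library of B73 and 1 without the TGFβ1 library of B87, while that of lower calls was 1 without the TGFβ1 library of B73 and 0 with no replicate block. *Cxcl5*, which attracts neutrophils, went from 1.24 and 0.333 CPM to 0 counts, at least 9.52-fold lower against 3 counts over the group (adjusted p 0.00477). Its adjusted p was 0.0852 without the TGFβ1 library of B73 and 0.119 with no replicate block.

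Beside 5.62% and 8.31% of all genes, extracellular proteases and their inhibitors rose in 10 of 19 genes tested and fell in 2 (median 1.05). Without either library of B87, SB505124 or TGFβ1, 6 were called higher, and with no replicate block 4. *Timp3*, a metalloprotease inhibitor, went from 62.3 and 220 to 284 and 1671 CPM (2.54 ± 0.32, edgeR adjusted p 0.00162, and 0.242 with no replicate block), and *Adam8*, a membrane protease, from 3.62 and 1.79 to 44.3 and 6.42 CPM (2.82 ± 0.40, adjusted p 0.00256, and 0.139 with no replicate block). *Mmp3*, stromelysin (chromosome 9, 7445822 to 7455975), was at 6.81 CPM in B73 and 124 CPM in B87 with SB505124 and at 0.0510 and 0.561 CPM with TGFβ1 (-7.56 ± 0.47, adjusted p 0.000117, and 0.0909 with no replicate block). Of the stretches of *Timp3*, 20.6% also occur in transcripts of *Syn3*, in whose intron it lies.

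Of 16 interferon-response genes tested, 7 were called lower, beside 8.31% of all genes, and none higher (median -0.78). Leaving out the SB505124 or the TGFβ1 library of B73 left 2 and 3, leaving out either of B87 left 2, and with no replicate block 1 was called. The summed level of the list went from 142 and 176 to 88.2 and 112 CPM. *Ifit1* went from 0.486 to 0.204 CPM in B73 and, in B87, from 3.70 to 0.663 CPM (-2.12 ± 0.40, edgeR adjusted p 0.00753), with adjusted p-values of 0.135 and 0.137 without the SB505124 and the TGFβ1 library of B87 and of 0.294 with no replicate block. Of 12 genes of MHC class I presentation 1 was called, the transporter gene *Tap1* (4.32 and 3.49, then 1.74 and 1.73 CPM; -1.16 ± 0.34, adjusted p 0.0362), and leaving out any of the 4 libraries put its adjusted p between 0.102 and 0.163. With no replicate block it was 0.0725. Of all genes 8.31% were called lower, so 1 of 12 is near that share.

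Of 18 genes of glutathione transferases, aldehyde dehydrogenases and P450s, 11 were called lower and 1 higher, or 2 higher without either library of B73. Their median was -2.54, or -2.22 with genes at 3 counts or fewer set to that floor. Of 26 antioxidant genes, most of them targets of NRF2, 11 were lower and none higher (median -0.77). Of all genes, 5.62% were called higher and 8.31% lower. *Gsta4*, which conjugates lipid aldehydes to glutathione (chromosome 9, 78182774 to 78209349), fell from 594 and 229 to 4.75 and 2.60 CPM (-6.75 ± 0.14, edgeR adjusted p 3.85e-06). *Aldh3a1*, which oxidizes aldehydes (chromosome 11, 61207537 to 61218421), fell from 250 and 319 to 3.27 and 2.96 CPM (-6.50 ± 0.14, adjusted p 3.85e-06). The P450 gene *Cyp1a1* fell from 3.84 and 9.03 to 0.0510 and 0.204 CPM (-5.60 ± 0.34) and *Cyp2s1* from 46.5 and 19.9 to 0.715 and 0.765 CPM (-5.39 ± 0.32), with adjusted p-values of 0.000114 and 0.000109. In each of these both TGFβ1 libraries lay below both SB505124 libraries, as in 29.8% of all tested genes. *Slc7a11*, the cystine importer, fell from 36.1 and 201 to 6.94 and 14.9 CPM (-3.14 ± 0.34, adjusted p 0.000821, and 0.0887 with no replicate block) and *Fth1*, the ferritin heavy chain, from 2083 and 1289 to 648 and 531 CPM (-1.48 ± 0.12, adjusted p 0.000282). *Ugt2b34*, a glucuronosyl transferase outside both lists (chromosome 5, 86889767 to 86906937), went from 128 and 19.7 CPM to 2 counts in all, a ratio of 1313 with an exact 95% counting interval of 363 to 1.084e+04 (adjusted p 5.48e-05). *Gsta1* fell from 133 and 46.3 to 1.07 and 0.867 CPM, but 84.7% of its stretches occur in *Gm3776*, so its own level is uncertain.

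Other steep falls were in *Gda*, guanine deaminase (65.5 and 18.1, then 0.612 and 0.204 CPM; -6.56 ± 0.44, edgeR adjusted p 0.000158), *Ffar4*, a receptor for long-chain fatty acids (38.9 and 7.78, then 0.612 and 0.0510 CPM; -5.97 ± 0.67, adjusted p 0.000947), and *Atp8b1*, a phospholipid flippase (36.7 and 8.69, then 0.459 and 0.357 CPM; -5.62 ± 0.37, adjusted p 0.000158). *Slc26a2*, a sulfate transporter, was among the largest losses in CPM, from 805 and 255 to 58.0 and 48.6 CPM (-3.12 ± 0.32, adjusted p 0.000654). In these 4 genes B73 began higher than B87. The treatments did not overlap, with TGFβ1 lower, as in 29.8% of all tested genes.

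Of 18 glycolysis genes, 10 were higher and 1 lower at an adjusted p under 0.05, beside 2235 and 2516 of all 14301 genes. Beside 5.62% of all genes, 3 were also past 2-fold and called higher. These were *Hk2*, hexokinase 2 (94.9 and 86.0, then 304 and 303 CPM; 1.75 ± 0.09, edgeR adjusted p 8.71e-05), *Slc16a3*, a lactate exporter (1.95 and 3.70, then 19.0 and 52.6 CPM; 3.62 ± 0.34, adjusted p 0.000470), and *Pfkfb3*, a regulator of glycolytic flux (1.16 ± 0.19, adjusted p 0.00454). The list median was 0.43. *Pfkfb3* had a log2 fold change of 0.87 without the TGFβ1 library of B73, and *Slc16a3* an adjusted p of 0.0527 with no replicate block. Without the SB505124 library of B73, 5 were called. Of 24 genes of cholesterol synthesis and uptake 0 were called by edgeR (median -0.18), with 8 at an adjusted p under 0.05 and under 2-fold. Of 7 mitochondrially encoded mRNAs 0 were called, and their median was 0.04.

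The same treatment was compared in Smad4-off cells, in which *Smad4* mRNA was lower, to see which responses were tied to the state of *Smad4*. There, the calls were 445 genes higher (3.11%) and 403 lower (2.82%). Of the genes called higher in Smad4-on cells, 386 (48.0%) were also called higher in Smad4-off cells and 796 of 804 had the same sign. Of those called lower, 385 (32.4%) were also called lower and 1159 of 1189 had the same sign. No gene was called in opposite directions. A call in 1 state and not in the other does not show a difference, so the difference of the log2 fold changes, Smad4 on minus Smad4 off, was tested for every gene. It was called for 8 genes with a more positive response in Smad4-on cells (0.0559%) and for 19 with a more negative one (0.133%), while 1493 genes (10.4%) had an unadjusted p under 0.05. With no replicate block edgeR called 0, with 640 genes at an unadjusted p under 0.05, and DESeq2 without the line called 39. Leaving out the Smad4-off TGFβ1 library of B73 left 0, that of B87 4, the Smad4-off SB505124 library of B73 4 and of B87 9, the Smad4-on SB505124 library of B73 3 and of B87 11, and the Smad4-on TGFβ1 library of B73 8 and of B87 14.

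Of the genes with a called difference, the 5 named with a more negative response in Smad4-on cells fell there more steeply. *Il33*, *Gsta4*, *Aldh3a1* and *Mgat3* were also called lower in Smad4-off cells, and *Tspan8* was not. *Il33* went from 50.5 and 26.3 to 12.6 and 7.57 CPM in Smad4-off cells, a log2 fold change of -1.90 against -5.07 in Smad4-on cells. *Gsta4* went from 235 and 102 to 15.3 and 6.63 CPM with *Smad4* off (-3.95 against -6.75), and *Aldh3a1* from 149 and 172 to 10.2 and 12.6 CPM (-3.82 against -6.50). *Mgat3*, a glycosyltransferase that adds bisecting N-acetylglucosamine, went from 185 and 149 to 70.8 and 43.9 CPM with *Smad4* off and from 167 and 97.1 to 5.21 and 5.35 CPM with *Smad4* on (-1.57 against -4.60). *Tspan8*, an epithelial tetraspanin, went from 534 and 399 to 277 and 197 CPM and from 463 and 214 to 42.4 and 20.4 CPM (-0.99 against -3.42). With SB505124, levels of *Il33*, *Aldh3a1*, *Mgat3* and *Tspan8* lay within 2-fold of each other between the states in each line, while *Gsta4* was more than 2-fold higher with *Smad4* on. With TGFβ1 the Smad4-on libraries of all 5 genes were the lower in both lines.

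Among the genes with a more positive response, *Vegfa* went from 69.4 and 65.8 to 123 and 118 CPM in Smad4-off cells (0.84 against 2.22 in Smad4-on cells) and *Itga5* from 42.6 and 43.7 to 72.9 and 99.1 CPM (0.97 against 2.52). *Ctgf* went from 207 and 273 to 940 and 1377 CPM with *Smad4* off (2.26 against 4.01), and with *Smad4* on its rise began lower, at 85.5 and 168 CPM. *Nabp1*, a single-stranded DNA binding protein, went from 30.2 and 28.2 to 36.0 and 35.4 CPM with *Smad4* off, which was not called (0.29, edgeR adjusted p 0.156), and from 31.1 and 23.5 to 96.5 and 90.5 CPM with *Smad4* on (1.79 ± 0.12, adjusted p 0.000149). *Adgrg1*, an adhesion receptor, went from 283 and 249 to 526 and 479 CPM with *Smad4* off and from 29.3 and 22.9 to 232 and 141 CPM with *Smad4* on (0.92 against 2.81), so that its larger fold with *Smad4* on also began at a lower level. The feedback genes showed no called difference, with values of 0.27 ± 0.33 for *Pmepa1* and 0.78 ± 0.12 for *Skil* (adjusted p 0.842 and 0.103), and neither did *Id3* (-0.88 ± 0.15, adjusted p 0.122). A p that misses the threshold does not show that the states respond alike.

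**Figure D4:**
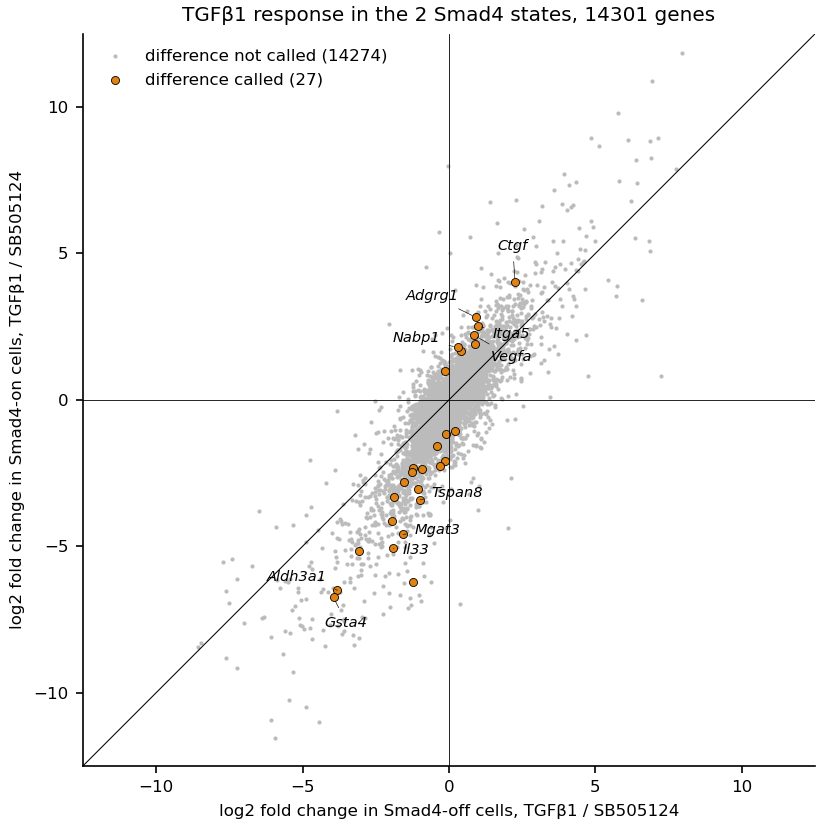
Log2 fold change of TGFβ1 over SB505124 in Smad4-off cells (x axis) and in Smad4-on cells (y axis) for 14301 genes, from the same edgeR model. Orange points are the 27 genes whose difference between the states was called, the diagonal marks equal response, and the 10 named genes are labeled. *Il33*, *Mgat3* and *Tspan8* lie well under the diagonal, and *Ctgf* and *Adgrg1* above it.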

How the data were processed

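Poly(A) RNA of 8 libraries was read as 75-base single-end reads. Per the labels, the submitters' processing notes name FastQC 0.11.5, Trimmomatic 0.36, STAR 2.5.3a, GRCm38 (mm10) and featureCounts 1.6.3. The deposited values are raw counts per Ensembl gene, made by the authors from each library without pooling. How strand and multiply mapped reads were handled is not given in the sources used here, so overlapping genes and near-identical copies are uncertain. For each named gene, 75-base stretches of its GENCODE M21 transcripts were searched, on either strand, in transcripts of other genes.

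The counts were tested with edgeR 4.0.16 in R 4.3.3 (TMM, filterByExpr, quasi-likelihood F-test) over all 8 libraries, in a model of 4 groups plus line. The study used DESeq2, and no covariate is named for it. Calls needed a Benjamini-Hochberg adjusted p under 0.05 and more than 2-fold change. The pairing comes from the line named in each title, and the libraries of a line deviated together, with correlations of 0.642 to 0.774 (median 0.758) over 6 pairs of groups. Standard errors were taken as the log2 fold change over the square root of F. Folds per line used log2 CPM with a prior count of 2. P-values measure how unevenly the 2 lines responded across the 4 groups, after the line in the model removed their constant difference. The floor of 3 counts covers counting error only, since PCR copies cannot be told apart.

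Named genes were *Smad4* and, among called genes that averaged 1 or more on the log2 CPM scale and kept their sign in both lines, the 12 largest rises and falls and the 6 largest gains and losses in CPM. Added were up to 4 called genes per list, all members of the feedback, BMP, CDK inhibitor and EMT factor lists, and the 5 largest differences each way between *Smad4* states. The text gives those needed for each comparison. Cell-type markers and shares of over 10% of stretches found in other genes are mentioned beside the values they touch. Predicted gene models are counted but named only where they share stretches, and some items are not reported here. The members and the 36 lists were chosen with earlier results of these data known. Scripts were tested on simulated data. Alternatives were DESeq2 1.42.0 with and without the line, its size factors, library totals (added after the data were seen), no filter, 10 counts as a minimum for each library, no fold rule, a test against 2-fold, the 4 Smad4-on libraries only, no replicate block and leaving out each library.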

Additional observations from a re-analysis of the deposited data

Results flagged for a closer look

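The TGFβ1 response differed between Smad4-on and Smad4-off cells, by the test of the difference itself, for 8 genes with a more positive and 19 with a more negative response in Smad4-on cells. The 10 named among them are given as the log2 difference with its SE and its edgeR adjusted p. They were -3.17 ± 0.19 for *Il33* (0.00529), -3.02 ± 0.26 for *Mgat3* (0.0189), -2.80 ± 0.17 for *Gsta4* (0.00529), -2.69 ± 0.17 for *Aldh3a1* (0.00529) and -2.43 ± 0.26 for *Tspan8* (0.0380). On the positive side they were 1.38 ± 0.13 for *Vegfa* (0.0206), 1.50 ± 0.16 for *Nabp1* (0.0380), 1.54 ± 0.18 for *Itga5* (0.0461), 1.75 ± 0.20 for *Ctgf* (0.0387) and 1.90 ± 0.21 for *Adgrg1* (0.0380). Each kept its sign when any 1 of the 8 libraries was left out, and none was called in edgeR with no replicate block. In DESeq2 without the line all but *Gsta4* (adjusted p 0.512) and *Ctgf* (0.104) were called. *Il33*, *Gsta4* and *Aldh3a1* were called in 7 of the 8 fits that left out a library, the exception being the Smad4-off TGFβ1 library of B73, without which their adjusted p was 0.0642, 0.0749 and 0.0642. *Mgat3* was called in 4 of 8, *Adgrg1* in 2, *Vegfa*, *Itga5*, *Ctgf* and *Tspan8* in 1 and *Nabp1* in 0, with adjusted p-values up to 0.206.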

How the results depend on the processing

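Counts of called genes in Smad4-on cells depended most on the fold rule and on the line in the model. The 804 genes higher and 1189 lower became 2235 and 2516 with no fold rule, 361 and 521 in a test against the 2-fold threshold, and 447 and 588 with no replicate block, where the pairing of libraries is ignored. Requiring 10 counts in every library gave 736 lower. Library totals in place of TMM gave 667 higher and 1417 lower. Leaving out each library gave 608 to 704 higher and 900 to 974 lower. The 27 genes whose response differed between *Smad4* states became 3 in a test against the 2-fold threshold, 0 with no replicate block (640 at an unadjusted p under 0.05), 136 in DESeq2 with the line and 39 without it, 284 with no filter on low counts and 0 to 14 when a library was left out. The cause of these changes was not tested. Among the named genes, direction turned only in uncalled ones. When a Smad4-on library was left out, the log2 fold change ran from -0.96 to 0.56 for *Bambi*, -0.42 to 0.13 for *Twist1*, -0.46 to 0.0112 for *Cdk2*, -0.11 to 0.22 for *Cdk4*, -0.0351 to 0.36 for *Cdc25a* and -0.31 to 0.10 for *E2f1*. With library totals *Cdk4* was at -0.0843. At these depths, genes under 0.128 to 0.163 CPM were not detectable, and with 2 lines a group the spread of each gene rests on few values.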
